A study of Mus musculus with 20 samples.

Results

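The genes described here are 36 genes of the unfolded protein response and of protein folding in the endoplasmic reticulum (ER), read by RNA-seq in adipocyte progenitor cells of the mouse. They were chosen by symbol, were all found among the 27179 genes of the expression table, and are 4 stress sensors and transcription factors, 10 chaperones and co-chaperones, 3 proteins of the lectin chaperone cycle, 5 disulfide enzymes, 9 proteins of ER-associated degradation and 5 proteins of the translocon and signal peptidase. Averaged over the 20 libraries, 35 of the 36 reached 10 normalized reads and were tested as part of a fit over 13057 genes; Derl3 was below that mean. The cells were PDGFRb+ cells from inguinal white fat, the subcutaneous depot of the groin, taken by flow cytometry from male C57BL/6 mice and split by the surface peptidase DPP4. Each population, DPP4+ and DPP4-, came from mice held either at 22 °C or, for 24 h, at 6 °C, and this made 4 groups of 5 libraries; the labels name no genetic change or drug in any of them. The labels do not say whether the 5 libraries of a group came from separate mice or from pools, so a p-value measures the spread between these libraries, which may be technical.

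The ER is where secreted and membrane proteins enter the secretory pathway, receive sugars and disulfide bonds, and fold with the help of chaperones. When unfolded proteins collect there, the membrane sensors IRE1 (encoded by Ern1), PERK (Eif2ak3) and ATF6 start the unfolded protein response: IRE1 splices the Xbp1 mRNA into a form that encodes an active transcription factor, ATF6 is cut to release its transcription factor part, and PERK slows translation and raises the factor ATF4. XBP1 and ATF6 are known to raise genes for chaperones, disulfide enzymes and ER-associated degradation, and fibroblast-like progenitors of fat use this machinery for the collagens and other matrix proteins they secrete. Reads per gene do not separate spliced from unspliced Xbp1 mRNA and do not show cleavage of ATF6 or phosphorylation of PERK, so the values below are mRNA levels alone.

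The libraries held 8.49 to 18.8 M reads assigned to genes (M stands for 1e+06). Values are normalized reads, that is gene counts divided by 1 factor per library, and means are given ± SD. Dpp4 stood at 8546 ± 1158 and 10035 ± 2091 normalized reads (SD, n = 5) in DPP4+ cells at 22 °C and 6 °C, against 67.9 ± 21.6 and 61.3 ± 42.4 in DPP4- cells, and all 10 fibroblastic progenitor markers were detected in all 4 groups. In these bulk libraries, fewer cells of a type and less RNA per cell cannot be told apart. Summed markers of other cells, over all libraries, were 8.55 to 62.7 for T and NK cells (12 markers), 174 to 661 for macrophages and dendritic cells (12), 25.7 to 106 for mesothelial and epithelial cells (10) and 947 to 4333 for endothelial cells (12). The sum of 12 mature adipocyte markers ran from 2424 to 3228 in DPP4+ cells at 22 °C, 1317 to 2211 in DPP4+ cells at 6 °C, 3136 to 6733 in DPP4- cells at 22 °C and 7234 to 12084 in DPP4- cells at 6 °C.

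The ER stress response element is a promoter motif made of a CCAAT box, bound by NF-Y, and a CCACG part bound by ATF6 or XBP1, with 9 bases between. It was searched as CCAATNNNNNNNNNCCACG on both strands of RefSeq promoters (GRCm38.p6, 250 bases before to 50 after each gene's start), of which 29 of the 36 members have at least 1 (30 promoters, 2 of them for Derl2). The motif was in a promoter of 9 of these 29 members (31%) and of 0.137% of all 27025 genes with a promoter. The members were chosen as genes of the response that acts through this element, so these shares describe that choice and are not a test. The 9 stretches are shown because Hspa5, Creld2, Calr and Syvn1, on which results below turn, are among their genes. Capitals mark CCAAT and CCACG, or ATTGG and CGTGG where the motif lies on the other strand, and each is written 5′ to 3′ along its gene.
Hspa5, chr2:34772015-34772053 (+): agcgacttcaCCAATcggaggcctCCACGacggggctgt
Dnajc3, chr14:118937817-118937855 (+): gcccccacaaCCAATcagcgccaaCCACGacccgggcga
Hsp90b1, chr10:86705523-86705666 (-): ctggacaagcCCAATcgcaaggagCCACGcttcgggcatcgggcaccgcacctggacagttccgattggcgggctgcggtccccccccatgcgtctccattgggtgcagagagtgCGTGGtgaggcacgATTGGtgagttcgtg
Creld2, chr15:88819510-88819548 (+): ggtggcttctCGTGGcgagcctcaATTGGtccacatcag
Calr, chr8:84847065-84847103 (-): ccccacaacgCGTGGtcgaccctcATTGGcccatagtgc
Canx, chr11:50325790-50325828 (-): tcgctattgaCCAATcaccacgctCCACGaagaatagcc
Pdia6, chr12:17266481-17266519 (+): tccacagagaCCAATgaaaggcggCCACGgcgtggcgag
Syvn1, chr19:6046522-6046560 (+): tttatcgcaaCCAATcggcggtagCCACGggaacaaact
Derl3, chr10:75893232-75893270 (+): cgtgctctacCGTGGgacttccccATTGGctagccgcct
All 9 lie before the start of their gene, from -222 to -16 bases relative to it, and the Hsp90b1 stretch holds 2 matches in opposite orientations. A second form of the element, ATTGGNCCACG, was found in 2 of the 29 (Herpud1 and Dnajb11; 6.9%, against 0.0444% of all genes with a promoter). A CCAAT box alone, CCAAT, was in 22 of 29 (75.9%, against 41.1%). The unfolded protein response element TGACGTGG and the cAMP response element TGACGTCA were in no promoter of the 29 members and in one of 0.714% and 2.03% of all genes with a promoter. A match describes the letters of the promoter and was not tested for binding.

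The first comparison asked how 24 h at 6 °C changed these genes in DPP4+ cells. Of the 35 tested members 27 rose and none fell (limma, adjusted p under 0.05), while 23.5% of all 13057 tested genes rose and 22.6% fell. The median log2 difference of the members was 0.30, against 0.0058 over all tested genes. All 5 libraries at 6 °C lay above all 5 at 22 °C for 26 members, which holds for 19.4% of all tested genes, and below them for none. Chaperones moved most: 9 of 10 rose, with a median of 0.59, and the 3 largest rises, each at least 2-fold on the fitted scale, were Sdf2l1, Hyou1 and Creld2.

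Hspa5 encodes BiP, the Hsp70 chaperone of the ER that also holds the sensors inactive (Entrez gene 14828, chromosome 2, 34772090 to 34776529, GRCm38). In DPP4+ cells it had 11937, 13674, 14852, 14201 and 14779 normalized reads in the 5 libraries at 22 °C and 27432, 24469.7, 30133, 26764 and 27886 at 6 °C. The groups did not overlap, and the means, 13888 ± 1191 and 27337 ± 2042, differed 1.97-fold (log2 difference 0.98, SE 0.084, adjusted p = 1.21e-09, limma). Hyou1, an Hsp110 family member that exchanges nucleotide on BiP (Entrez gene 12282, chromosome 9, 44379490 to 44392369), had 1799.6, 1786, 1738, 1733 and 1722 at 22 °C and 4447, 3379, 3942, 4078 and 3479 at 6 °C. Each library at 6 °C was well above the highest at 22 °C, 2.2-fold in the means (log2 difference 1.13, SE 0.0733, adjusted p = 8.28e-12). Sdf2l1, which works with BiP and its J-domain partners (Entrez gene 64136, chromosome 16, 17130138 to 17132383), went from 218, 255, 263, 247 and 274 to 661, 532, 607, 638 and 646. It showed the largest rise among the members, 2.45-fold (log2 difference 1.29, SE 0.132, adjusted p = 3.08e-08), with no overlap.

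Creld2, a small ER protein with disulfide isomerase activity that is induced by ER stress (Entrez gene 76737, chromosome 15, 88819646 to 88826681), had 407, 407, 350.3, 432 and 427 normalized reads at 22 °C and 891, 746, 805, 948 and 770.3 at 6 °C. Its groups were apart and its means differed 2.06-fold (log2 difference 1.04, SE 0.086, adjusted p = 6.6e-10). Manf, an ER-resident protein that is also secreted under stress (Entrez gene 74840, chromosome 9, 106888753 to 106891938), had 1340.1, 1402, 1459, 1419 and 1337 at 22 °C and 2324, 2099, 2295, 2417 and 2231 at 6 °C. The 1.63-fold rise (log2 difference 0.71, SE 0.0526, adjusted p = 9.67e-11) again left no overlap. Among the other chaperones, Hsp90b1, the Hsp90 of the ER known as GRP94, rose 1.4-fold, from 14771 ± 369 to 20628 ± 1122 (0.48, adjusted p = 2e-06). The J-domain co-chaperones of BiP in this list rose as well, with log2 differences of 0.45 for Dnajb9, 0.45 for Dnajb11 and 0.18 for Dnajc3. Dnajc3 was the weakest of these, its groups overlapped, and its call was lost without any 1 of DPP4+ 22 °C libraries 1 and 2 or 6 °C library 5 (adjusted p = 0.0572, 0.0508 and 0.0668). Dnajc10, which also has a J-domain, is listed with the disulfide enzymes below and was not called. Sil1, the other nucleotide exchange factor of BiP, was the 1 chaperone not called, at 432 ± 17 and 425 ± 34.9 (-0.024, 95% interval -0.17 to 0.12, adjusted p = 0.803).

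**Figure D1:**
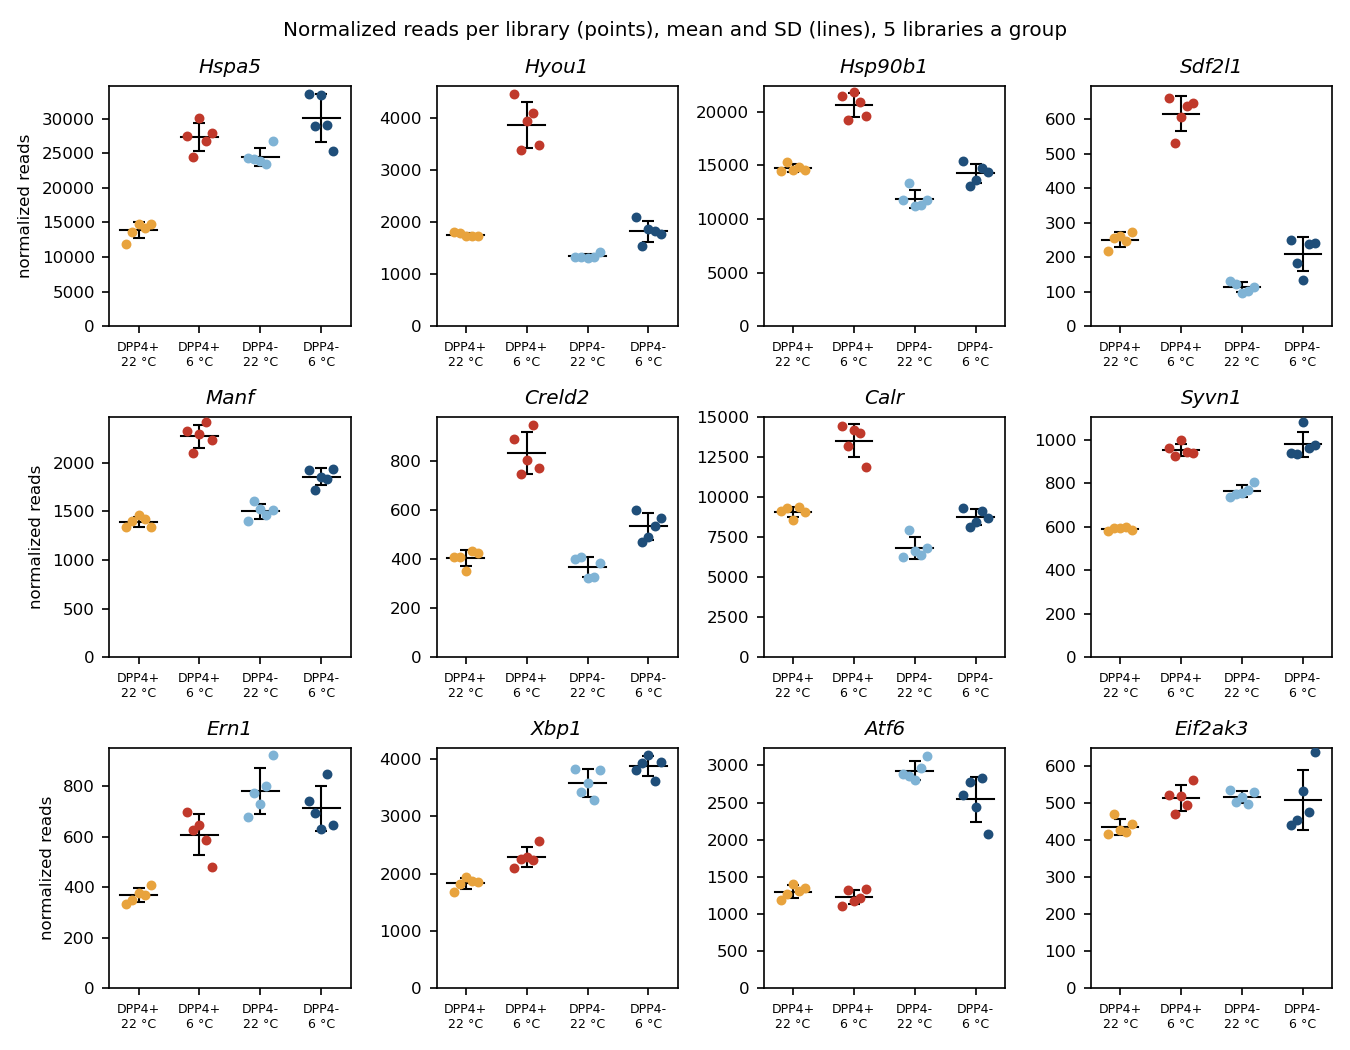
Normalized reads of 12 members in each library (points; horizontal lines are group means and vertical bars SD, 5 libraries a group; each panel starts at 0). Hspa5, Hyou1, Sdf2l1 and Creld2 at 6 °C stand apart from 22 °C in DPP4+ cells, Atf6 and Xbp1 are lower in DPP4+ than in DPP4- cells at both temperatures, and Hspa5 in DPP4+ cells lies below DPP4- cells at 22 °C and overlaps them at 6 °C.

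Of the 4 sensors and transcription factors, 3 rose in the cold in DPP4+ cells. Ern1 (Entrez gene 78943, chromosome 11, 106397620 to 106487796) had 335, 349, 379, 371 and 409 normalized reads at 22 °C and 699, 626, 645, 588 and 481 at 6 °C. No library at 6 °C fell within the range at 22 °C, and the means differed 1.65-fold (log2 difference 0.71, SE 0.0957, adjusted p = 1.71e-06). Xbp1 (Entrez gene 22433, chromosome 11, 5520641 to 5525993) had 1681, 1826, 1950.3, 1867 and 1847 at 22 °C and 2106, 2253, 2295, 2232 and 2577 at 6 °C. Its groups were apart by a smaller step of 1.25-fold (log2 difference 0.32, SE 0.0611, adjusted p = 0.000141). Eif2ak3 (Entrez gene 13666, chromosome 6, 70844484 to 70905241) had 417, 471, 427, 423 and 444 at 22 °C and 522, 471, 520.4, 495 and 565 at 6 °C. Its lowest library at 6 °C was next to its highest at 22 °C, and the 1.18-fold difference (log2 difference 0.24, SE 0.0776, adjusted p = 0.015) was not called with totals set equal (adjusted p = 0.0634). Atf6 (Entrez gene 226641, chromosome 1, 170704457 to 170868585) had 1182, 1265, 1400.3, 1311 and 1351 at 22 °C and 1105, 1316, 1174, 1221 and 1337 at 6 °C. These overlapped throughout (-0.083, 95% interval -0.23 to 0.070, adjusted p = 0.379).

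In the lectin cycle, in which calreticulin and calnexin hold glycoproteins until they are folded, Calr and Canx rose and the folding sensor Uggt1 was not called (0.11, 95% interval 0.0014 to 0.22, adjusted p = 0.0911). Calr (Entrez gene 12317, chromosome 8, 84842088 to 84846931) had 9116, 9303, 8553, 9386 and 9077 normalized reads at 22 °C and 14434, 13185, 14204, 14022 and 11873 at 6 °C. All of the latter were above all of the former, 1.49-fold in the means (log2 difference 0.57, SE 0.0712, adjusted p = 4.9e-07). Canx, the membrane-bound partner, went from 5668 ± 90.8 to 7366 ± 238 (0.38, adjusted p = 2.05e-06). Of the 5 disulfide enzymes, which form and shuffle disulfide bonds, 4 rose with log2 differences from 0.22 (P4hb, or PDI, also a subunit of the collagen prolyl 4-hydroxylase) to 0.41 (Pdia6, or P5). Pdia6 (Entrez gene 71853, chromosome 12, 17266589 to 17284785) had 5225, 5382, 4851, 5197 and 5012 at 22 °C and 7372, 6449, 6923, 7238 and 6255 at 6 °C, with no overlap. Pdia4, or ERp72 (Entrez gene 12304, chromosome 6, 47796141 to 47813512), had 2701, 2829, 2453, 2667 and 2464 at 22 °C and 3358, 2936, 3105, 3249.7 and 2885 at 6 °C (log2 difference 0.24, SE 0.0802, adjusted p = 0.0154). Dnajc10, the ER reductase ERdj5, stood at 1856 ± 46.4 and 1791 ± 184 (-0.057, 95% interval -0.19 to 0.072, adjusted p = 0.483).

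ER-associated degradation takes misfolded proteins back to the cytosol, and 4 of its 8 tested members rose. Syvn1, the ubiquitin ligase HRD1 (Entrez gene 74126, chromosome 19, 6046576 to 6053718), had 579, 594, 595, 598 and 586 normalized reads at 22 °C and 961, 926, 996, 945 and 936 at 6 °C. The 22 °C libraries were close together and the 6 °C libraries all lay above them, 1.61-fold in the means (log2 difference 0.69, SE 0.0479, adjusted p = 2.89e-11). Sel1l, the adaptor that holds the HRD1 complex together (Entrez gene 20338, chromosome 12, 91806043 to 91849157), had 2399.7, 2379, 2408, 2321 and 2396 at 22 °C and 2947, 2863, 2972, 2924 and 2977 at 6 °C. This was a non-overlapping rise of 1.23-fold (log2 difference 0.30, SE 0.0509, adjusted p = 3.18e-05). Edem1, a lectin that passes misfolded glycoproteins to degradation (Entrez gene 192193, chromosome 6, 108824045 to 108859356), had 949, 1045, 1062, 963 and 997 at 22 °C and 1414, 1279, 1404, 1271 and 1298 at 6 °C. It rose 1.33-fold with the groups apart (log2 difference 0.41, SE 0.054, adjusted p = 1.2e-06), and Derl1, of the derlin family in the ER membrane, rose with a log2 difference of 0.24, adjusted p = 0.00596. Herpud1, a scaffold of the HRD1 complex, was not called at 0.21 (adjusted p = 0.128). Edem2 (0.12), the lectin Os9 (0.053) and Derl2 (-0.088), the lowest of the 35, were not called either.

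All 5 members of the translocon and signal peptidase, which bring new chains into the ER and cut off their signal peptides, rose by small steps, with log2 differences from 0.18 (Spcs3, a signal peptidase subunit) to 0.31 (Ssr1, of the translocon-associated complex). Ssr1 (Entrez gene 107513, chromosome 13, 37971401 to 37994208) had 2096, 2261, 2257, 2247 and 2193 normalized reads at 22 °C and 2870.3, 2617, 2959, 2778 and 2530.2 at 6 °C. Every library at 6 °C was above every library at 22 °C (log2 difference 0.31, SE 0.0507, adjusted p = 1.95e-05). The channel subunit Sec61a1 rose with a log2 difference of 0.25, adjusted p = 0.000149. Sec61b, at 404 ± 40.6 and 472 ± 26.3, was closest to the threshold (adjusted p = 0.0327) and lost its call without any 1 of 4 libraries, DPP4+ 22 °C library 3 and 6 °C libraries 2, 4 and 5 (adjusted p = 0.124, 0.053, 0.0767 and 0.0619).

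Across the alternatives to the processing, 21 of the 27 kept their call in every one of the 31 tried. Eif2ak3, Dnajc3, Pdia4, P4hb, Sec61b and Spcs3 did not. No member fell on the main scale, while Atf6 and Dnajc10 were called lower with quantile normalization and Dnajc10 with sample weights. The 8 tested members with the motif in their promoter all rose in DPP4+ cells, with a median log2 difference of 0.53, as did 14 of the 20 tested members that have a promoter without it, with a median of 0.24. Of the 9 other tested genes of the table with the motif, 3 rose and 3 fell. These are counts, with no test. Of 12 plasma cell and B cell markers, made by cells with a large ER, 5 were at a mean of 10 or more, and their sum was 881 to 1198 at 22 °C and 1716 to 2007 at 6 °C in DPP4+ cells. Sdc1 (316 to 969) and Irf4 (669.6 to 838) made up most of that sum, while Jchain was at 1.07 and 0.647 and Cd79a at 3.32 and 1.97 normalized reads. The sum of 27 immediate early and dissociation genes was 86540.5 to 109684 at 22 °C and 90228 to 133729 at 6 °C. The mature adipocyte marker sum was lower at 6 °C in every library (1317 to 2211 against 2424 to 3228). Averaged over the 20 libraries, Fabp4 (3994) made up most of that sum. Of the 9 tested adipocyte markers 1 was called higher and 1 lower, with log2 differences from -1.04 to 5.10 (median -0.50). The part of these lists in the result was not tested.

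In DPP4- cells the same exposure raised 8 of the 35 tested members and lowered none (limma), where 1.98% of all tested genes rose and 3.23% fell. The median log2 difference of the members was 0.028. The 8 were Hspa5, Hyou1, Hsp90b1, Sdf2l1, Manf, Creld2, Calr and Syvn1, which all rose in DPP4+ cells too. By role list 6 of them, Creld2 included, are chaperones of 10, and none was in the sensor, disulfide enzyme or translocon list. With library totals set equal 14 rose, the 8 with Xbp1, Dnajb9, Dnajb11, Pdia6, Herpud1 and Derl2, beside 7.01% of all tested genes. All 5 libraries at 6 °C lay above all 5 at 22 °C for 6 members (1.65% of all tested genes), and below them for 1, Ssr1 (3.22%). The motif shown above was in the promoter of 5 of the 8, while Hyou1 and Manf, also of the 8, had no promoter to search. Of its 8 tested carriers 5 rose, against 1 of 20 members with a promoter that lacks it. Of the 9 other tested genes of the table with the motif, 2 rose and none fell. These are counts, with no test.

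Sdf2l1 had 132, 122, 95.7, 103 and 113 normalized reads in DPP4- cells at 22 °C and 249, 183, 134, 239 and 241 at 6 °C. The lowest library at 6 °C was just above the highest at 22 °C, and the means differed 1.85-fold (log2 difference 0.85, SE 0.132, adjusted p = 0.000607). Creld2 had 401, 408, 322, 329 and 386 at 22 °C and 602, 470.4, 489, 536 and 569 at 6 °C. It rose 1.44-fold without overlap (log2 difference 0.53, SE 0.086, adjusted p = 0.000756). Hyou1 had 1330.1, 1330.1, 1310.0, 1328 and 1427 at 22 °C, a narrow range, and 2103, 1534, 1867, 1828 and 1765 at 6 °C. The 6 °C libraries were all higher and more spread, 1.35-fold in the means (log2 difference 0.43, SE 0.0733, adjusted p = 0.00118).

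Manf had 1399, 1606, 1520.3, 1459.9 and 1515 normalized reads at 22 °C and 1929, 1722, 1859, 1833 and 1937 at 6 °C (log2 difference 0.31, SE 0.0526, adjusted p = 0.00118). Calr had 6252, 7976, 6626, 6403 and 6853 and 9356, 8118, 8439.6, 9157 and 8714 (log2 difference 0.36, SE 0.0712, adjusted p = 0.0042). Syvn1, the 1 degradation gene called, had 736, 748, 753, 768 and 806 and 939.8, 933, 1078, 962 and 976 (log2 difference 0.36, SE 0.0479, adjusted p = 0.000178). In all 3 the groups were apart, if narrowly for Calr. These 3, with Sdf2l1, Creld2 and Hyou1, were called in all 31 alternatives to the processing. Fits without a DPP4+ library change only the shared estimate of the spread here, not the difference itself. Totals set equal raised the median over all tested genes from 8.9e-05 to 0.097, so it could hardly end these calls.

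Hspa5 in DPP4- cells had 24338, 24155, 23895, 23425 and 26748 normalized reads at 22 °C and 33633, 28955, 33379, 29017 and 25398 at 6 °C. The lowest library at 6 °C lay below the highest at 22 °C, and the 1.23-fold difference was close to the threshold (log2 difference 0.29, SE 0.084, adjusted p = 0.0448). Leaving out 1 library at a time ended the call in 13 of 20 fits (those without DPP4+ 22 °C libraries 2, 4 and 5, DPP4+ 6 °C libraries 3 and 4, DPP4- 22 °C libraries 1, 2, 3 and 4 and DPP4- 6 °C libraries 1, 2, 3 and 4), with adjusted p from 0.0177 to 0.115 over the 20. Hsp90b1 also overlapped, at 11906 ± 849.7 and 14262 ± 923 (0.26, adjusted p = 0.0207), and was not called without DPP4- 22 °C library 3 (adjusted p = 0.0539) or 6 °C library 1 (adjusted p = 0.0555).

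No sensor or transcription factor was called in DPP4- cells, except Xbp1 with totals set equal (0.21, adjusted p = 0.0194). Ern1 had 678, 773, 731, 799.8 and 922 normalized reads at 22 °C and 743, 695, 629, 847 and 646 at 6 °C (-0.13, 95% interval -0.33 to 0.065, adjusted p = 0.453). Xbp1 had 3835, 3433, 3575, 3278 and 3813 and 3805, 3924, 4073, 3612 and 3944 (0.11, 95% interval -0.014 to 0.24, adjusted p = 0.309). Ern1 overlapped over most of its range, while for Xbp1 3 of the 5 libraries at 6 °C lay above all 5 at 22 °C. Atf6 had 2882, 2854, 2800.1, 2961 and 3132 and 2596, 2772, 2446, 2831 and 2072 (-0.21, 95% interval -0.36 to -0.057, adjusted p = 0.097). Eif2ak3 had 536, 504, 518, 499 and 529.8 and 441, 455, 533, 478 and 639 (-0.036, 95% interval -0.20 to 0.12, adjusted p = 0.834). For Atf6 4 of the 5 libraries at 6 °C lay below all 5 at 22 °C, and Eif2ak3 at 6 °C spread to both sides of its range at 22 °C. Herpud1 had the largest difference among members not called (0.35, adjusted p = 0.0676), and Atf6 the lowest log2 difference of the 35.

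Ssr1 had 2619.7, 2728, 2706, 2805 and 2864 normalized reads in DPP4- cells at 22 °C and 2427, 2485, 2529, 2581 and 2460.0 at 6 °C, so that every library at 6 °C was lower, but the difference did not pass the test (log2 difference -0.14, SE 0.0507, adjusted p = 0.118). Edem1 had 1364, 1194, 1205, 1333 and 1335 and 1243, 1280.2, 1207, 1306 and 1201, which overlapped (-0.043, 95% interval -0.15 to 0.069, adjusted p = 0.702). The 5 disulfide enzymes ran from -0.13 (P4hb) to 0.20 (Pdia6). Pdia6 had 3279, 3887, 3288, 3349.7 and 3179 and 4069, 3670.3, 3648, 3962 and 4183. Pdia4 had 1549, 1786, 1466, 1610.4 and 1395 and 1814, 1456, 1497, 1867 and 1948. In both, 3 libraries at 6 °C lay above all 5 at 22 °C and the other 2 within their range. Sel1l had 1777, 1717, 1687, 1768 and 1750.1 at 22 °C and 1653, 1617, 1616, 1846 and 1918 at 6 °C (-0.012, 95% interval -0.12 to 0.093, adjusted p = 0.923). Mature adipocyte markers moved with this comparison: their sum was 3136 to 6733 at 22 °C and 7234 to 12084 at 6 °C, with all 5 libraries at 6 °C above all 5 at 22 °C. The sum of 10 mesothelial and epithelial markers was also higher without overlap (25.7 to 56.8 at 22 °C and 63 to 106 at 6 °C). Of these only Krt19 and Lrrn4 were tested, and 1 of the 2 was called higher (log2 difference 1.95) and the other not (-0.033). The sum of fibroblastic progenitor markers was lower (1.52 to 1.85 M and 1.04 to 1.5 M), as was that of DPP4+ progenitor markers (6529.8 to 7086 and 5242 to 6264), both without overlap. Col3a1 and Col1a1 made up most of the fibroblastic sum, and 2 of its 10 markers were called lower and none higher. Of the 10 DPP4+ progenitor markers none was called. The part of these lists in the result was not tested. DPP4- 6 °C library 2 also had the highest macrophage marker sum, 661; the 6 members that kept their call in all alternatives kept it without that library.

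**Figure D2:**
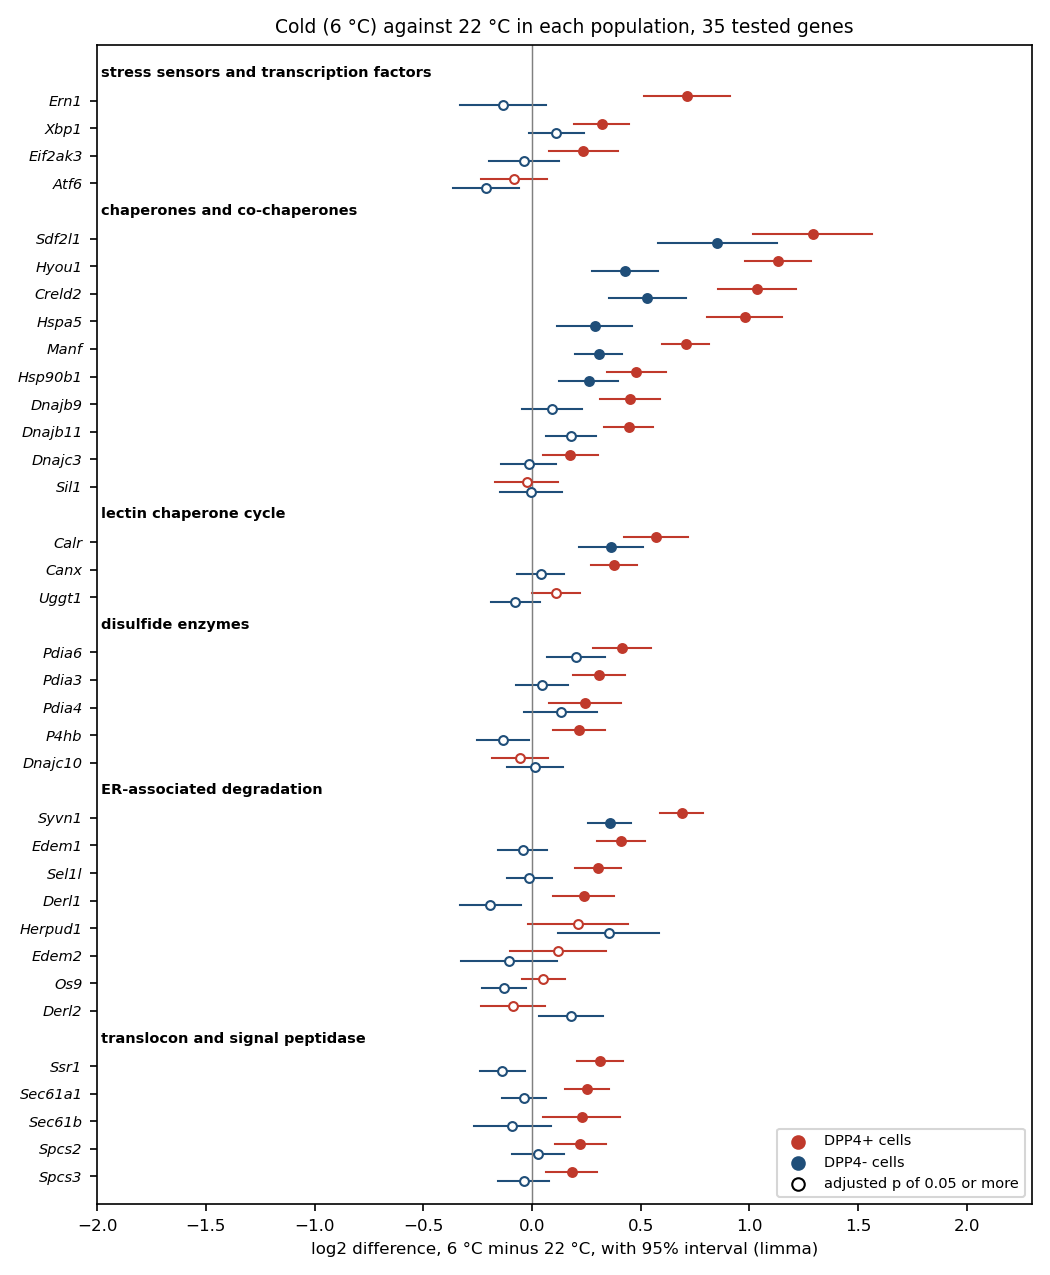
Fitted log2 difference between 6 °C and 22 °C with its 95% interval for the 35 tested members, in DPP4+ cells (red) and DPP4- cells (blue), grouped by role; filled points have an adjusted p under 0.05 (limma, 5 libraries a group). In DPP4+ cells 27 points are filled and all lie right of 0, and in DPP4- cells 8 are, of which 6 are chaperones.

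Whether the cold effect differed between the populations was tested as the difference of the 2 log2 differences (DPP4+ minus DPP4-). It was called for 20 of the 35 members, 19 higher in DPP4+ cells and 1 lower (limma), beside 16.8% and 16.4% of all tested genes. The median was 0.27. By role, the difference was higher for 1 of 4 sensors, 6 of 10 chaperones, 1 of 3 lectin cycle genes, 2 of 5 disulfide enzymes, 5 of 8 degradation genes and 4 of 5 translocon genes. Setting the library totals equal shifted the median of all tested genes for this contrast from 0.013 to -0.13 and left 9 higher and 2 lower, beside 8.64% and 23.4% of all tested genes. The 9 were Ern1, Hspa5, Hyou1, Dnajb9, Manf, Creld2, Edem1, Derl1 and Ssr1, and the same 9 kept their call in all 32 alternatives. Values below are on the main scale.

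Ern1 had the largest difference, 0.85, SE 0.135, adjusted p = 3.73e-05, from a rise in DPP4+ cells (0.71) and -0.13 in DPP4- cells. The BiP system followed, with Hyou1 at 0.70, adjusted p = 1.25e-05 and Hspa5 at 0.69, adjusted p = 8.86e-05. Both genes rose in both populations, and by more in DPP4+ cells. Creld2 (0.51, adjusted p = 0.00243) and Manf (0.40, adjusted p = 0.000209) did the same. Edem1 (0.45, adjusted p = 6.84e-05) and Ssr1 (0.45, adjusted p = 3.36e-05) were called in the cold in DPP4+ cells and not in DPP4- cells. Dnajb9, a BiP co-chaperone that also acts on IRE1, had a difference of 0.36, adjusted p = 0.00516, and Derl1 had 0.43, adjusted p = 0.0013.

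Syvn1 rose in both populations and its difference was called too (0.33, adjusted p = 0.000541). For the other 3 members that rose in both, the difference was not called. Sdf2l1 was at 0.44 (95% interval 0.054 to 0.82, adjusted p = 0.0737), Calr at 0.21 (95% interval 0.00096 to 0.42, adjusted p = 0.116) and Hsp90b1 at 0.22 (95% interval 0.028 to 0.41, adjusted p = 0.072). These intervals are not adjusted; they start just above 0 and reach sizes that were called for other members. Among the sensors, Eif2ak3 (0.27, 95% interval 0.046 to 0.50, adjusted p = 0.0589), Xbp1 (0.21, 95% interval 0.030 to 0.39, adjusted p = 0.0661) and Atf6 (0.13, 95% interval -0.088 to 0.34, adjusted p = 0.374) were not called. Pdia6 (0.21, 95% interval 0.021 to 0.40, adjusted p = 0.0817) and Pdia4 (0.11, 95% interval -0.12 to 0.35, adjusted p = 0.478) were not called either, while Pdia3 (0.26) and P4hb (0.35) were. Derl2 was the 1 member with a lower cold effect in DPP4+ cells (-0.27, adjusted p = 0.042), from -0.088 in DPP4+ and 0.18 in DPP4- cells, and this call was lost in 11 of 20 fits that left out 1 library (DPP4+ 22 °C libraries 1, 2, 3 and 5, DPP4+ 6 °C libraries 1, 3 and 4, DPP4- 22 °C library 4 and DPP4- 6 °C libraries 1, 2 and 5; adjusted p up to 0.085). The call of Os9 (0.18) was lost in 15 of the 20 (DPP4+ 22 °C libraries 1, 2, 3 and 4, DPP4+ 6 °C libraries 2, 3, 4 and 5, DPP4- 22 °C libraries 1, 2, 3 and 4 and DPP4- 6 °C libraries 1, 3 and 5; adjusted p up to 0.0829). The call of Sec61b (0.32) was lost in 13 of the 20 (DPP4+ 22 °C libraries 1 and 3, DPP4+ 6 °C libraries 2, 3, 4 and 5, DPP4- 22 °C libraries 2, 3, 4 and 5 and DPP4- 6 °C libraries 1, 3 and 4; adjusted p up to 0.0982). The call of Spcs3 (0.22) was lost in 11 of the 20 (DPP4+ 22 °C libraries 2, 3 and 4, DPP4+ 6 °C libraries 1, 4 and 5, DPP4- 22 °C libraries 1 and 2 and DPP4- 6 °C libraries 1, 2 and 3; adjusted p up to 0.0787).

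The DPP4+ and DPP4- cells were then compared at each temperature. At 22 °C, 16 members were higher in DPP4+ cells and 13 lower (limma), close to the 38.7% and 36.2% of all tested genes, so the count by itself does not set the members apart. The order by role was not even: all 4 sensors and transcription factors were lower in DPP4+ cells (3 with totals set equal, where Eif2ak3 turned), all 3 lectin cycle genes and 4 of 5 disulfide enzymes were higher, and chaperones went both ways, 4 higher and 3 lower (of the 3, Dnajb9 and Dnajc3 turned with totals set equal). At 6 °C, 21 members were higher and 7 lower, against 38.5% and 35.7% of all tested genes. The 5 libraries of each population did not overlap for 13 members above and 13 below at 22 °C (33.4% and 31.4% of all tested genes) and for 19 above and 4 below at 6 °C (29.8% and 27.4%).

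These directions depend in part on the scale, because the deposited values sum to 10.2 to 17.3 M per library and to less in DPP4+ than in DPP4- cells. When the totals were set equal, the median over every tested gene moved from 0.030 to 0.64 at 22 °C and from 0.032 to 0.50 at 6 °C, and the members split 29 higher and 4 lower at 22 °C (beside 69.8% and 15.6% of all tested genes) and 33 higher and 2 lower at 6 °C (beside 63.1% and 18.9%). The 4 that stayed lower at 22 °C were Atf6, Ern1, Xbp1 and Hspa5, and the 2 at 6 °C were Atf6 and Xbp1. The higher calls kept their direction and call in all 3 other scalings, for 16 of 16 members at 22 °C and 21 of 21 at 6 °C. Of these scalings, totals set equal moves values up in DPP4+ cells, so it could hardly end a higher call and does not test them. Only quantile normalization and TMM scaling could have ended them. Immediate early and dissociation genes also differ between the populations, with sums of 86540.5 to 109684 and 90228 to 133729 in DPP4+ cells at 22 °C and 6 °C against 297802 to 385702 and 303375 to 368699 in DPP4- cells (27 genes). The endothelial marker sum was higher in DPP4+ cells without overlap (2696 to 3411 and 2854 to 4333 against 1125 to 1551 and 947 to 1522). Averaged over the 20 libraries, Tek (1907) made up most of it. Of the 10 tested endothelial markers, 1 was higher and 5 lower at 22 °C (median log2 difference -1.67). At 6 °C 3 were higher and 6 lower (median -1.39). The fibroblastic progenitor sum, mostly Col3a1 and Col1a1, was lower (0.413 to 0.717 M and 0.377 to 0.565 M against 1.52 to 1.85 M and 1.04 to 1.5 M). Macrophage markers were lower in DPP4+ cells at 22 °C alone without overlap (174 to 209.6 against 240.5 to 292). At 6 °C alone, the sums of T and NK cell markers (8.55 to 13.8 against 22.2 to 62.7) and of mature adipocyte markers were lower without overlap. The plasma and B cell marker sum was higher (1716 to 2007 against 842 to 1186). The single markers did not share these directions. At 6 °C 3 of 9 tested adipocyte markers were higher in DPP4+ cells and 2 lower (median log2 difference 0.50). Of 5 tested plasma and B cell markers 2 were higher and 2 lower (median -2.25). No T and NK cell marker reached a mean of 10. The part of these lists in the differences below was not tested.

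Atf6 was lower in DPP4+ cells by 2.25-fold at 22 °C (1302 ± 83.5 against 2926 ± 129; log2 difference -1.17, SE 0.0738, adjusted p = 8.2e-13) and 2.07-fold at 6 °C (log2 difference -1.04, SE 0.0738, adjusted p = 6.2e-12). The per-library values given above for the 2 populations did not overlap at either temperature. Xbp1 was lower by 1.96-fold at 22 °C (log2 difference -0.97, SE 0.0611, adjusted p = 8.39e-13) and 1.69-fold at 6 °C (log2 difference -0.76, SE 0.0611, adjusted p = 6.76e-11), again without overlap. Ern1 was 2.12-fold lower in DPP4+ cells at 22 °C (log2 difference -1.08, SE 0.0957, adjusted p = 4.77e-10). At 6 °C its groups overlapped (log2 difference -0.23, SE 0.0957, adjusted p = 0.0335), and that call was lost without any 1 of DPP4+ 6 °C libraries 4 and 5 and DPP4- 6 °C libraries 1 and 4 (adjusted p up to 0.13) and turned with totals set equal (0.24). Eif2ak3 was lower at 22 °C (-0.25, adjusted p = 0.00641) but higher with totals set equal (0.37), and was not called at 6 °C (0.026, adjusted p = 0.77).

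Hspa5 was 1.76-fold lower in DPP4+ than in DPP4- cells at 22 °C, 13888 ± 1191 against 24512 ± 1296 (log2 difference -0.82, SE 0.084, adjusted p = 4.58e-09). The groups did not overlap, although with quantile normalization the difference was -0.025 (adjusted p = 0.783). At 6 °C the means were 27337 ± 2042 and 30076 ± 3458, the groups overlapped and no difference was called (-0.13, 95% interval -0.31 to 0.040, adjusted p = 0.156), but Hspa5 was higher in DPP4+ cells with totals set equal (0.34, adjusted p = 0.000242) and with quantile normalization (0.62, adjusted p = 1.61e-07). Partners of BiP went both ways. Sdf2l1 was 2.22-fold higher in DPP4+ cells at 22 °C (log2 difference 1.15, SE 0.132, adjusted p = 4.39e-08) and 2.95-fold at 6 °C (log2 difference 1.59, SE 0.132, adjusted p = 1.92e-10), without overlap. Hyou1 was 1.31-fold higher at 22 °C (0.38, adjusted p = 5.18e-05) and 2.12-fold at 6 °C (log2 difference 1.09, SE 0.0733, adjusted p = 2.52e-12). Creld2 and Manf were not called at 22 °C (0.14 and -0.11) and were higher in DPP4+ cells at 6 °C (0.64 and 0.29). Of the J-domain co-chaperones in the chaperone list, Dnajb11 was higher at both temperatures (0.16 and 0.42). Dnajb9 (-0.52 and -0.16) and Dnajc3 (-0.36 and -0.17) were lower at both on the main scale and turned with totals set equal. At 6 °C the call of Dnajb9 was lost without any 1 of DPP4+ 6 °C libraries 1, 2 and 4 and DPP4- 6 °C libraries 1, 3 and 4 (adjusted p up to 0.0982) and that of Dnajc3 without DPP4+ 6 °C library 2 (adjusted p = 0.0597). Sil1 was not called at either temperature on that scale (0.00047 and -0.020).

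Disulfide enzymes were higher in DPP4+ cells at both temperatures with the exception of P4hb, which was called at 6 °C alone. Pdia4 showed the largest difference of them, 1.68-fold at 22 °C (log2 difference 0.75, SE 0.0802, adjusted p = 9.8e-09) and 1.81-fold at 6 °C (log2 difference 0.86, SE 0.0802, adjusted p = 8.83e-10), with all DPP4+ libraries above all DPP4- libraries. Pdia6 was 1.51-fold higher at 22 °C and 1.75-fold at 6 °C (log2 difference 0.81, SE 0.0648, adjusted p = 6.12e-11). The degradation genes were divided. Sel1l (0.45 at 22 °C; log2 difference 0.77, SE 0.0509, adjusted p = 1.86e-12 at 6 °C), Edem2 and Derl2 were higher in DPP4+ cells at both temperatures. Syvn1 (-0.37), Edem1 (-0.36) and Derl1 (-0.36) were lower at 22 °C and not called at 6 °C, and the direction of all 3 at 22 °C turned with totals set equal. Os9, a lectin of the HRD1 complex, was lower at both temperatures (-0.43 and -0.25), and this too turned with totals set equal. In the translocon group Ssr1 was lower at 22 °C (-0.31) and higher at 6 °C (0.14), the 1 member called in opposite directions; the first turned with 2 of the 3 other scalings and the second was lost without DPP4+ 6 °C library 3 (adjusted p = 0.0647).

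**Figure D3:**
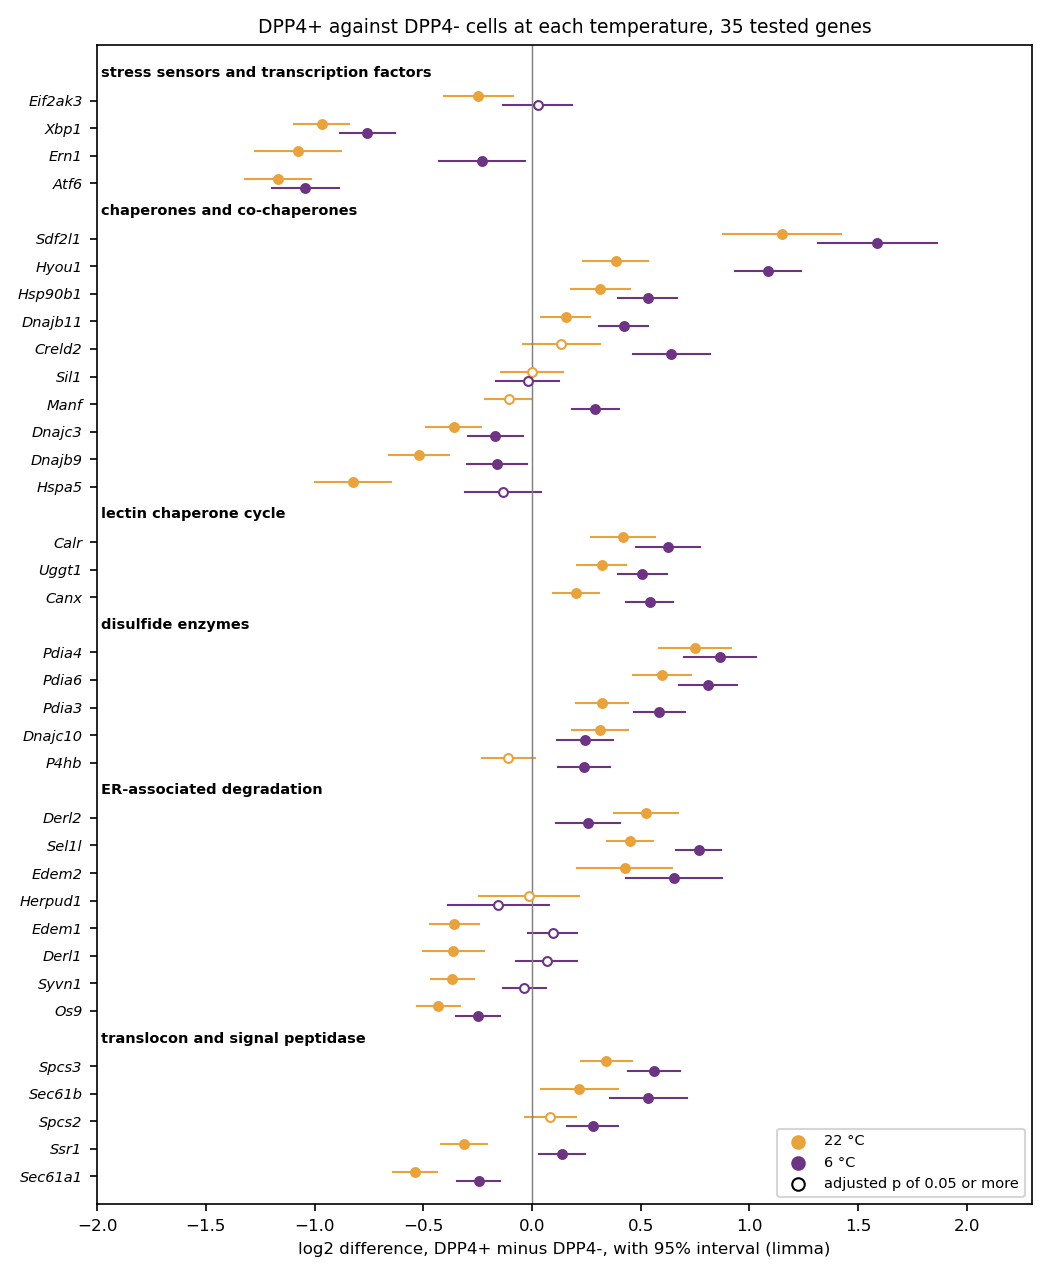
Fitted log2 difference between DPP4+ and DPP4- cells with its 95% interval at 22 °C (orange) and 6 °C (purple) for the 35 tested members by role; filled points have an adjusted p under 0.05 (limma, main scale). Atf6, Ern1 and Xbp1 lie left of 0 at 22 °C while the lectin cycle genes lie right of it, and Hspa5 moves from -0.82 at 22 °C to -0.13 at 6 °C.

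The rise in DPP4+ cells was shared by the 5 libraries. For each library the median over the 35 members of the log2 difference from the 22 °C mean of its own population was taken, which places the 22 °C libraries near 0 by construction. It was -0.028 to 0.018 in DPP4+ libraries at 22 °C and 0.23 to 0.35 at 6 °C, where 30 to 34 of the 35 members were above their 22 °C mean. In DPP4- libraries it was -0.037 to 0.012 at 22 °C and 0.021 to 0.069 at 6 °C, with 19 to 25 members above. The members' summed values made up 0.896 to 0.972% of a DPP4+ library's total at 22 °C and 1.15 to 1.36% at 6 °C. In DPP4- libraries the share was 0.631 to 0.671% and 0.714 to 0.803%. Neither pair of temperatures overlapped in this share.

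**Figure D4:**
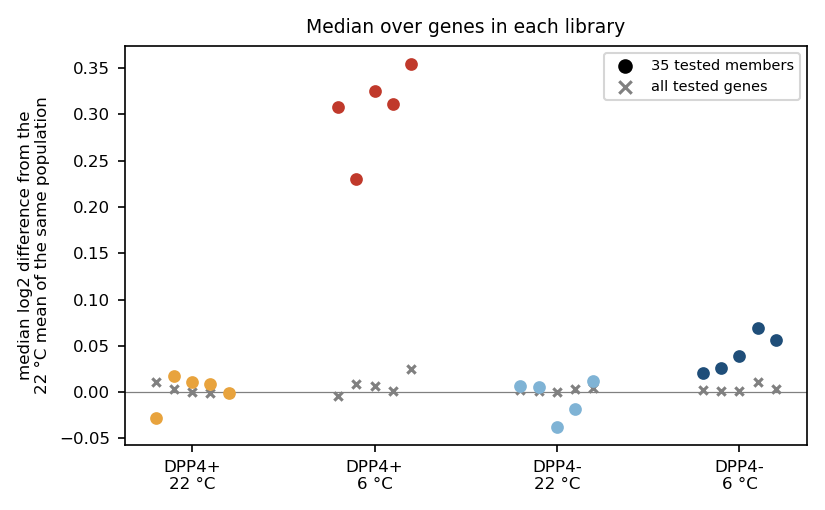
Median log2 difference from the 22 °C mean of the same population in each of the 20 libraries, over the 35 tested members (points) and over all tested genes (crosses). DPP4+ libraries at 6 °C lie between 0.23 and 0.35, DPP4- libraries at 6 °C between 0.021 and 0.069.

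Levels differ widely between members. Per kilobase of exon (GENCODE vM21, all exons merged), the level in DPP4+ cells at 22 °C was highest for Hsp90b1 (5229 normalized reads per kilobase), Calr (4161), Pdia3 (3894) and Hspa5 (3699.6). In the cold Hspa5 reached 7282, next to Hsp90b1 at 7302. In DPP4- cells Hspa5 was the highest member at both temperatures, 6529.6 and 8012 per kilobase. The tested member with the lowest level per kilobase was Ern1 in DPP4+ cells at 22 °C and 6 °C (45.2 and 74.5), and Derl2 in DPP4- cells (66 and 75). Derl3, the derlin of secretory cells and the 1 member left untested, had 6.84, 8.51, 6.51, 10.02 and 8.0 normalized reads in DPP4+ cells at 22 °C and 12.1, 11.2, 9.71, 7.67 and 8.97 at 6 °C. In DPP4- cells it had 0, 10.5, 2.52, 1.54 and 3.86 at 22 °C and 14.7, 12.3, 9.45, 5.65 and 12.3 at 6 °C. All of these are a few reads, and the ranges overlapped in both populations. The spans of 16 members overlap another RefSeq gene (for example Hspa5 with Rabepk, Pdia3 with Catsper2 and Syvn1 with Mrpl49), and as the strand setting of the counting is not given, reads of such neighbours cannot be separated from theirs.

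The rest of the pathway was followed with 8 further lists, of which 158 of 162 genes were tested. In DPP4+ cells 63 of these rose and 22 fell in the cold, and in DPP4- cells 2 rose and 13 fell (background shares as above). The 13 included 5 of 20 other chaperones and prolyl isomerases, among them Fkbp9, Fkbp14 and Fkbp7. They also included 3 of 15 other disulfide enzymes and oxidases, Prdx4, Tmx4 and Tmx3. No gene of these 2 lists rose in DPP4- cells, where 3.23% of all tested genes fell. Genes of ER exit and retrieval rose most often in DPP4+ cells, 16 of 23 with 2 lower, among them the COPII coat GTPase Sar1b (0.42) and its exchange factor Preb (0.35). Other translocon and signal recognition genes rose in 9 of 19 cases and fell in none, led by Srprb (0.68), a subunit of the signal recognition particle receptor, and Srp9 (0.64). Other degradation genes rose in 13 of 29 and fell in 2, led by Nploc4 (0.59) and Vcp (0.51), which together pull substrates out of the membrane. N-glycosylation genes rose in 11 of 25 and fell in 3, with the oligosaccharyltransferase subunit Stt3b at 0.68 and the glucosyltransferase Alg6 at -0.91. Counts in the remaining lists were nearer to the background or mixed. Of 20 other chaperones and prolyl isomerases 5 rose and 7 fell. Among the 7 was Cdnf, a relative of Manf, at -0.84, with a mean of only 10.7 over the 20 libraries, just above the filter. Of 15 other disulfide enzymes and oxidases 2 rose and 2 fell. Of 14 other sensors and activators 3 rose and 1 fell (Atf6b, the paralogue of Atf6, at 0.54).

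Genes of the PERK and ATF4 arm went both ways. Of its 13 genes 4 rose and 5 fell in DPP4+ cells, beside 23.5% and 22.6% of all tested genes, with a median of -0.0059, and 1 rose and none fell in DPP4- cells. Chac1, a glutathione-degrading enzyme induced by ATF4, had 42.9, 54.4, 36.9, 49.5 and 43.6 normalized reads in DPP4+ cells at 22 °C and 25, 27, 15.5, 23.9 and 10.5 at 6 °C. It fell without overlap (log2 difference -1.18, SE 0.38, adjusted p = 0.0132). In DPP4- cells it had 0, 1.5, 5.04, 3.07 and 3.86 at 22 °C and 6.7, 5.45, 6.75, 3.76 and 11.5 at 6 °C, low values whose difference was not called (1.25, adjusted p = 0.0544). The difference of its cold effects was called (log2 difference -2.44, SE 0.537, adjusted p = 0.00112), at a size that depends on the pseudocount (-2.71 with 0.5 and -1.66 with 5).

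Trib3, a pseudokinase target of ATF4 and CHOP, had 176, 136, 138, 149 and 170.1 normalized reads in DPP4+ cells at 22 °C and 121, 101, 91.3, 120.2 and 77 at 6 °C. All 5 were lower at 6 °C (log2 difference -0.60, SE 0.228, adjusted p = 0.0352, limma). This call was lost with quantile normalization (adjusted p = 0.0742) and in 6 of 20 fits without 1 library. Those 6 left out DPP4+ 22 °C libraries 1, 4 and 5 and 6 °C libraries 2, 3 and 5 (adjusted p up to 0.0883). Fits without a DPP4- library could not change the difference, which stayed at -0.60. The difference of the cold effects of Trib3 was -1.23, adjusted p = 0.00529. Asns, asparagine synthetase, had 1022, 979.7, 823, 1003 and 898 at 22 °C and 759.8, 651, 681, 750.4 and 568 at 6 °C in DPP4+ cells, and it rose in DPP4- cells from 432, 504, 457, 523 and 552 to 711, 620.4, 713, 574 and 644. The directions were opposite (-0.47 and 0.40), each without overlap, and the difference was -0.88, SE 0.121, adjusted p = 4.9e-06. Ddit3, which encodes CHOP and was picked after its values were seen, fell in DPP4+ cells from 251 ± 20.1 to 187 ± 28.2 with 1 library overlapping (log2 difference -0.43, SE 0.107, adjusted p = 0.00185). In DPP4- cells it stood at 215 ± 22.4 and 272 ± 43.1 (0.32, adjusted p = 0.076). Atf4 itself, also picked after its values were seen, rose in DPP4+ cells from 2199 ± 304 to 2736 ± 129 (0.32, adjusted p = 0.000923), while Chac1, Trib3, Asns and Ddit3 fell. Cebpb rose in DPP4+ cells (0.49, adjusted p = 0.000128).

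**Figure D5:**
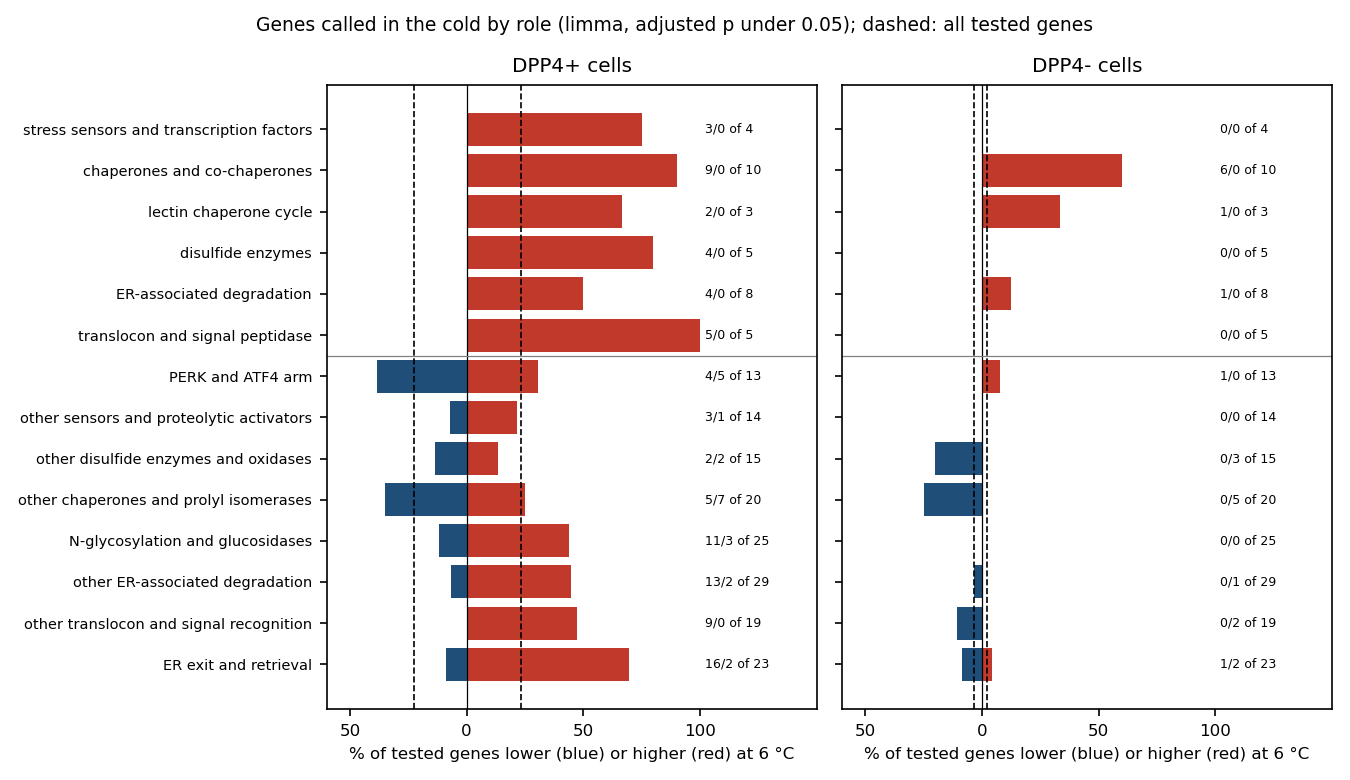
Share of the tested genes of each role group that was higher (red, to the right) or lower (blue, to the left) at 6 °C in DPP4+ cells (left panel) and DPP4- cells (right panel), with the counts higher/lower of tested; the 6 groups above the grey line are the members, the 8 below it the other pathway lists, and dashed lines are the shares of all tested genes (23.5% and 22.6% in DPP4+ cells, 1.98% and 3.23% in DPP4- cells). In DPP4+ cells 4 genes of the PERK and ATF4 arm are higher and 5 lower. Of the 5, Trib3 loses its call with quantile normalization and in 6 of 20 fits without 1 library, all 6 without a DPP4+ library. No member is lower in either population on the main scale.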

How the data were processed

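The authors deposited 1 table of normalized signal per gene and library, gene counts divided by 1 factor per library; the submitters' processing notes name DESeq2 1.6.3, featureCounts 1.4.6, HISAT2 2.0.1 and Trim Galore 0.4.1, and as builds mm10 and GRCm38. The step of each library gave whole reads for 100% of values (tolerance 0.1 read). The strand setting and annotation are not given in the sources used here. The 958 genes with no symbol took 0.061 to 0.0824% of reads and were kept in totals.

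Genes with a mean of at least 10 (13057) were fitted on log2(value + 1) with limma 3.58.1 in R 4.3.3: 4 group means over 20 libraries, 16 residual degrees of freedom before moderation, trend and robust variance, 5 contrasts, two-sided p adjusted by Benjamini-Hochberg within each over all tested genes, threshold 0.05. Folds are ratios of group means; log2 differences are on the log2(value + 1) scale, which understates the change of low genes. The fit was also run on simulated counts with equal group means except in a small set of genes, and with a fixed spread. In these data many genes differ and totals are unequal, so that run does not test the scaling. Alternatives were pseudocounts of 0.5 and 5, no filter or a mean of at least 50, totals set equal, quantile or TMM scaling, sample weights, the replicate number as a block, each library left out, and, on the whole reads, edgeR 4.0.16 (quasi-likelihood) and DESeq2 1.42.0.

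The members, role and pathway lists, cell type markers and rules were chosen with earlier results of these data known. Values per library are given for the called members with the 6 largest differences in each contrast and for Atf6, Ern1, Eif2ak3 and Xbp1; from other lists up to 3 called genes with the largest difference are named, and Ddit3, Atf4 and any gene named elsewhere were added after their values were seen. Coordinates and promoters are RefSeq's on GRCm38.p6.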

Additional observations from a re-analysis of the deposited data

Results flagged for a closer look

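For 12 of 144 groups of 5 libraries (36 members in 4 groups), 1 library stood far from the other 4 by Dixon's test at the 95% level, where chance flags about 1 in 20 groups; values are normalized reads. In DPP4- at 22 °C these were Hspa5 in library 5 (26748, the highest), Hyou1 in library 5 (1427, the highest), Dnajb9 in library 5 (1691, the highest), Hsp90b1 in library 2 (13346, the highest), Pdia6 in library 2 (3887, the highest) and Edem2 in library 1 (487, the highest). In DPP4- at 6 °C this was Pdia3 in library 1 (9218, the highest). In DPP4+ at 22 °C these were Dnajc10 in library 2 (1939, the highest), Derl1 in library 2 (510.2, the highest), Os9 in library 1 (2347, the lowest) and Sec61b in library 3 (333, the lowest). In DPP4+ at 6 °C this was Dnajc10 in library 5 (2109.8, the highest). Library 5 of the DPP4- cells at 22 °C was the highest for Hspa5, Hyou1 and Dnajb9, all of the BiP system. Without it, the cold effect in DPP4- cells was 0.32 for Hspa5 (adjusted p = 0.044, limma) and 0.45 for Hyou1 (adjusted p = 0.00263).

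The cold effect differed between DPP4+ and DPP4- cells for 20 members by the test of the difference itself. On the log2 scale the difference was 0.85 for Ern1, 0.70 for Hyou1, 0.69 for Hspa5, 0.51 for Creld2, 0.45 for Edem1, 0.45 for Ssr1, 0.43 for Derl1, 0.40 for Manf, 0.36 for Dnajb9, 0.35 for P4hb, 0.34 for Canx, 0.33 for Syvn1, 0.32 for Sec61b, 0.31 for Sel1l, 0.29 for Sec61a1, 0.27 for Dnajb11, 0.26 for Pdia3, 0.22 for Spcs3 and 0.18 for Os9. It was -0.27 for Derl2, the 1 member with the lower effect in DPP4+ cells.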

How the results depend on the processing

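In all alternatives tried the direction and call were kept for 21 of 27 members higher in the cold in DPP4+ cells, 6 of 8 in DPP4- cells, 9 of 19 with a larger and 0 of 1 with a smaller cold effect in DPP4+ cells, 15 of 16 higher and 3 of 13 lower in DPP4+ cells at 22 °C, and 20 of 21 higher and 2 of 7 lower at 6 °C. Between populations, totals set equal moves values up in DPP4+ cells, so it could end lower calls there but hardly higher ones. It also moves the cold differences in DPP4- cells up, so it could hardly end the higher calls there. The cause of the changes below was not tested. Leaving out 1 library gave, higher and lower, 25 to 27 and 0 members called for cold in DPP4+ cells, 6 to 11 and 0 to 1 in DPP4- cells (the 1 lower was Derl1, without DPP4- 6 °C library 3), 16 to 20 and 0 to 1 for the difference, 15 to 16 and 13 to 14 between populations at 22 °C, and 20 to 21 and 5 to 8 at 6 °C.

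With totals set equal, 14 members rose in the cold in DPP4- cells (7.01% of all tested genes), the difference split 9 higher and 2 lower (Dnajc10 and Derl2; 8.64% and 23.4% of all), the populations 29 and 4 at 22 °C (69.8% and 15.6%) and 33 and 2 at 6 °C (63.1% and 18.9%). Quantile normalization called 2 members lower in the cold in DPP4+ cells (Atf6 and Dnajc10), 11 with a larger cold effect in DPP4+ cells and 3 lower in DPP4+ cells at 6 °C. Sample weights called 1 lower in the cold in DPP4+ cells (Dnajc10) and 0 with a smaller cold effect there, no filter likewise 0. DESeq2 called 2 lower in the cold in DPP4- cells (Os9 and Ssr1).

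Log2 differences between DPP4+ and DPP4- cells that changed sign with totals set equal were, at 22 °C, Eif2ak3 (0.37), Dnajb9 (0.094), Dnajc3 (0.25), Manf (0.50), P4hb (0.50), Herpud1 (0.60), Syvn1 (0.24), Edem1 (0.25), Derl1 (0.25), Os9 (0.18), Sec61a1 (0.076) and Ssr1 (0.30), and at 6 °C, Ern1 (0.24), Hspa5 (0.34), Sil1 (0.45), Dnajb9 (0.31), Dnajc3 (0.30), Herpud1 (0.31), Syvn1 (0.43), Os9 (0.22) and Sec61a1 (0.22). With quantile normalization they were, at 22 °C, Dnajc3 (0.11), Manf (0.18), P4hb (0.47) and Ssr1 (0.038), and at 6 °C, Hspa5 (0.62), Dnajb9 (0.013), Dnajc3 (0.11) and Sec61a1 (0.013). The difference of the cold effects for Os9 became -0.00175 with quantile normalization.

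Replicate numbers were not taken to pair the libraries, as in no pair of groups did all 5 same-numbered libraries correlate in their deviations over 0.1 (-0.228 to 0.267 over the 6 pairs of groups). Between DPP4+ and DPP4- cells at the same temperature all 5 correlations were above 0 but low, 0.029 to 0.156 at 22 °C and 0.0166 to 0.107 at 6 °C, where 2 and 4 of 5 libraries correlated best with their own number, so a weak pairing there was not settled. With the replicate block 28 members rose in the cold in DPP4+ cells and 8 in DPP4- cells, the difference was 18 higher and 1 lower, and the populations split 16 and 13 at 22 °C and 21 and 6 at 6 °C. With the block set within each temperature, the difference was 20 and 1 and the populations 16 and 13 and 21 and 7. Members at a few reads, as Derl3, were limited by depth.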

Other observations

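Outside the ER, the cytosolic heat shock genes of the immediate early and dissociation list were not even in DPP4+ cells, and the genes named here were picked after their values were seen. Hsph1, the cytosolic Hsp110 and thus the counterpart of Hyou1, had 954, 1017, 1117, 1037 and 1012 normalized reads in DPP4+ cells at 22 °C and 6422, 5444, 5862, 5926 and 3918 at 6 °C. It rose 5.37-fold without overlap (log2 difference 2.40, SE 0.179, adjusted p = 1.83e-09, limma), more than any of the tested ER members. In DPP4- cells it had 1562, 2387, 2947, 2591 and 2619 at 22 °C and 3440.1, 3317, 4778, 3812 and 2244 at 6 °C, which overlapped (0.53, adjusted p = 0.0913). The constitutive Hsp70 gene Hspa8 and Hsp90aa1 rose less in DPP4+ cells (0.48 and 0.37), while the stress-induced Hsp70 genes Hspa1a and Hspa1b were not called, at 0.14 (95% interval -0.31 to 0.58, adjusted p = 0.633) and 0.12 (95% interval -0.26 to 0.51, adjusted p = 0.614). These 2 genes are near-identical copies, so reads may be split between them.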
